A study of Mus musculus with 51 samples.

Results

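The 10 genes described here encode Notch receptors (Notch1, Notch2, Notch3), their ligands (Jag1, Jag2, Dll1, Dll4), 2 target repressors (Hes1, Hey1) and Lfng, an enzyme that modifies the receptors. They were chosen by name from the 52636 genes of a count table of sorted mouse epithelial cells, and all 10 have a row in it. The choice used no measured value as its rule, but it was made with earlier results of these data known.

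Notch signalling passes between touching cells. A Jagged or Delta-like ligand on the surface of a sending cell pulls on a Notch receptor of its neighbour, proteases cut the receptor, and its intracellular part enters the nucleus, where it binds RBPJ and Mastermind-like proteins and switches on genes such as Hes1 and Hey1. Lunatic fringe, the product of Lfng, adds sugars to the receptors and shifts how strongly they answer Delta-like and Jagged ligands. In stratified squamous epithelia such as the oesophagus, Notch signalling promotes the step from basal to suprabasal cells, and in the intestine Dll1 and Dll4 on secretory cells sustain stem cells and hold neighbours in the absorptive fate.

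Total RNA of sorted cells was sequenced in 51 libraries of 14 groups. SmoM2, a constantly active mutant of the Hedgehog signal transducer Smoothened, was carried by all mice named SmoM2 here under a Krt5 driver, which works in basal squamous cells. Cells were sorted on EpCAM, a surface protein of epithelial cells, or on Krt8YFP, a yellow fluorescent reporter of Krt8, a keratin of columnar cells. Mice labelled Krt5-SmoM2-Sox9fl/fl (Sox9cKO, 4 libraries) also carry a floxed Sox9, with no sort given, and are set against Krt5-SmoM2 mice of strain CD1 sorted EpCAM-high (SmoM2, 6 libraries). Mice labelled Krt5-SmoM2-Krt8YFP, of mixed background, gave EpCAM-high cells with YFP (K8YFP+, 3 libraries) and without it (K8YFP-, 3 libraries). A further set of Krt5-SmoM2 mice was sampled at 7w and 3w as EpCAM-high and EpCAM-low cells, 4 libraries each, with no strain given. The labels do not say from what event these times, taken here as weeks, were counted, and give no age for the other adult groups. Krt8YFP mice, with no SmoM2, gave columnar cells of the junction, sorted EpCAM-high and YFP-positive (Junction columnar, 4 libraries). They gave squamous cells of the junction (Junction squamous, 3 libraries), with no strain given and no sort beyond the letters EpHi in the raw names. Krt8YFP mice further gave YFP-positive Gut and Stomach cells (2 libraries each). They also gave EpCAM- and YFP-positive cells of the oesophagus at stage E13.5 (Embryo, 2 libraries); except for the squamous cells, these mice were of mixed background. Wild-type CD1 mice gave EpCAM-low oesophageal cells (WT, 6 libraries), so SmoM2 and WT differ in gate as well as in genotype, and Embryo and WT differ in strain and gate as well as in age. The labels give each library a raw name that opens with a number, of a meaning not stated, called its library set here. SmoM2 and WT share no set, nor do the 7w and 3w libraries, the EpCAM-low and WT libraries, the columnar and squamous cells of the junction, or K8YFP+ and junction columnar cells, so in each of these comparisons the groups and the sets cannot be told apart. The labels name no animal for a library, so the p-values below measure the spread between libraries, which may in part be technical.

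Library totals ran between 1.61 M and 12.26 M counts (1 M is 1000000), and the shallowest group was K8YFP+, at 1.61 M to 6.71 M. The Hedgehog target Gli1 was at 194 to 288 CPM (counts per M of the library total) in the 6 SmoM2 libraries, against 0.428 to 1.22 CPM in the 6 WT libraries. Sox9 was at 45.7, 45.8, 51.7 and 127 CPM in the 4 libraries labelled Sox9cKO, against 72.7 to 194 CPM in the 6 SmoM2 libraries, so the library labelled Sox9cKO 3 lay inside the SmoM2 range; reads outside the floxed part would still be counted. Marker sums of 7 squamous basal genes were 2370 to 13200 CPM in the 10 adult squamous groups and 430 to 783 CPM in the junction columnar, gut and stomach groups. WT libraries 3 and 5, and likewise 4 and 6, differed from each other far less than other WT pairs (chi-square per degree of freedom over genes of 1.92 and 2.47, against 11.0 or more), though by more than sampling noise. The raw names of libraries 3 and 5 end alike, as do those of 4 and 6, but library 2 shares the ending of 3 and 5 and was no near-repeat of them. The tests against WT were therefore also run with each of these pairs summed into 1 library, which ended calls in SmoM2 against WT, as given there, and no member's call in the EpCAM-low or Embryo comparisons. WT library 1 stood apart in several members and had the most fibroblast marker counts of its group, 107 CPM over 6 genes, against 17.3 to 50.3 CPM in the other 5 WT libraries.

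By GENCODE M21 (GRCm38), the receptors lie at chr2:26457903-26516663 (Notch1, minus strand), chr3:98013527-98150361 (Notch2, plus) and chr17:32120820-32166852 (Notch3, minus). The ligands lie at chr2:137081456-137116644 (Jag1, minus), chr12:112907819-112929776 (Jag2, minus), chr17:15367354-15376872 (Dll1, minus) and chr2:119325784-119335962 (Dll4, plus). Hes1 lies at chr16:30064384-30067796 (plus), Hey1 at chr3:8663359-8667256 (minus) and Lfng at chr5:140607320-140615545 (plus). All 10 are protein-coding. RefSeq promoter windows of 300 bases (250 before and 50 after a start, build GRCm38.p6) were found for 8 of the 10 members, as 9 windows, since Dll1 has 2. They were richer in CG dinucleotides than most: 15 to 63 per window in the members, against a median of 7 over all 32851 windows, of which 90% held at most 31. TGGGAA, the core of the site that RBPJ binds, was searched on both strands. It occurred in 1 of the 9 windows, that of Lfng, where it was found 2 times without overlap, and in 25.6% of all windows. The target genes Hes1 and Hey1 had no window, so their promoters were not searched. The longer GLI motif TGGGTGGTC occurred in 0 of the 9 windows and in 0.253% of all. A match is a string of letters and not a measured binding site. Lfng is printed because it holds the motif, Jag2 because it is the richest in CG, and Notch3 because it differed most of the receptors between the cell types of the junction; capitals mark TGGGAA or its reverse complement, and each is read 5′ to 3′ on the gene's strand. Lfng is at chr5:140607091-140607390 (plus strand), Jag2 at chr12:112929446-112929745 (minus strand) and Notch3 at chr17:32166841-32167140 (minus strand).
Lfng: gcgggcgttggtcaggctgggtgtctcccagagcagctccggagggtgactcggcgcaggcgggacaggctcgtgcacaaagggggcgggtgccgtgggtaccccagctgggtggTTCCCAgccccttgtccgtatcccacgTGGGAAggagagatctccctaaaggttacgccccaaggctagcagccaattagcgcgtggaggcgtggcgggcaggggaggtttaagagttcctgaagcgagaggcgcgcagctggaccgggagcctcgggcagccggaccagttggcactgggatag
Jag2: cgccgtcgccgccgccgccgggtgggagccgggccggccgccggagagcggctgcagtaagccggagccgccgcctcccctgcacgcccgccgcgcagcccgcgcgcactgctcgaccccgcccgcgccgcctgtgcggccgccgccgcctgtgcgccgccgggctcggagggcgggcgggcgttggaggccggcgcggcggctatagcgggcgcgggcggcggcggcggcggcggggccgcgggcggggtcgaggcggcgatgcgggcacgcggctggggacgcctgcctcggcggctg
Notch3: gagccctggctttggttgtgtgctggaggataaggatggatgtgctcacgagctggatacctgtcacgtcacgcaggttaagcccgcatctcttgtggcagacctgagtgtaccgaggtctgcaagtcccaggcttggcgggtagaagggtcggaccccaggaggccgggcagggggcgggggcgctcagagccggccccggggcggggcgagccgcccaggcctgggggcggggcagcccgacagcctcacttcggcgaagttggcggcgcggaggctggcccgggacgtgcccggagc
The Jag2 window was the richest in CG of the 9, with 63 CG dinucleotides and a GC content of 86.0%.

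Across the 14 groups, the 3 receptors and Jag1 were high in squamous cells and low in the junction columnar, gut and stomach cells. Jag2 followed this order except in K8YFP+ cells, whose 28.6 to 49.8 CPM overlapped the 23.0 to 33.2 CPM of Stomach. Dll4 showed the opposite order. Notch1, a receptor of basal keratinocytes, ranged between 427 ± 33.3 CPM in Sox9cKO (SD, n = 4) and 16.2 ± 14.4 CPM in Gut (n = 2). Its library ranges overlapped between each pair of neighbours in that order over the 10 highest groups, as far down as Embryo at 251 ± 43.2 CPM (n = 2). K8YFP+ cells came next at 173 ± 39.5 CPM (n = 3), below every library of those 10 groups. Notch2 was highest in K8YFP+ at 497 ± 109 CPM, and Gut was lowest at 32.2 ± 3.87 CPM. Notch3, which in other tissues is best known from smooth muscle and pericytes, ranged between 143 ± 11.9 CPM in K8YFP+ and 1.46 ± 1.05 CPM in Gut, and in the stomach and junction columnar cells it was 2.85 ± 0.0467 and 4.98 ± 1.83 CPM (n = 2 and 4).

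Among the ligands, Jag1 was highest in SmoM2 at 289 ± 48.6 CPM (n = 6) and lowest in Gut at 15.5 ± 6.84 CPM. Jag2 was highest in Sox9cKO at 207 ± 25 CPM, where its lowest library lay above every library of the next group, 7w EpCAM-low cells at 155 ± 16.9 CPM (n = 4). Dll1 was highest in Sox9cKO at 148 ± 59.3 CPM and lowest in Stomach at 0.681 ± 0.520 CPM. Dll4, the Delta-like ligand best known from vessel sprouting and the gut, reached 24.8 ± 12.4 CPM in Gut, 7.56 ± 2.89 CPM in Junction columnar and 3.56 ± 0.160 CPM in Stomach. These 3 groups did not overlap, and in 10 of the other 11 Dll4 averaged 0.149 to 2.21 CPM, with Junction squamous at 0.0522 CPM, a single count. The 2 target genes were highest in Embryo, Hes1 at 319 ± 11.8 CPM and Hey1 at 19.5 ± 7.76 CPM. Hey1 did not exceed a mean of 2.82 CPM elsewhere, and 12 of its 13 neighbouring pairs of groups overlapped. Lfng was also highest in Embryo, at 26.5 ± 13.1 CPM, and lowest in Junction squamous, at 1.05 ± 0.251 CPM (n = 3).

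**Figure D1:**
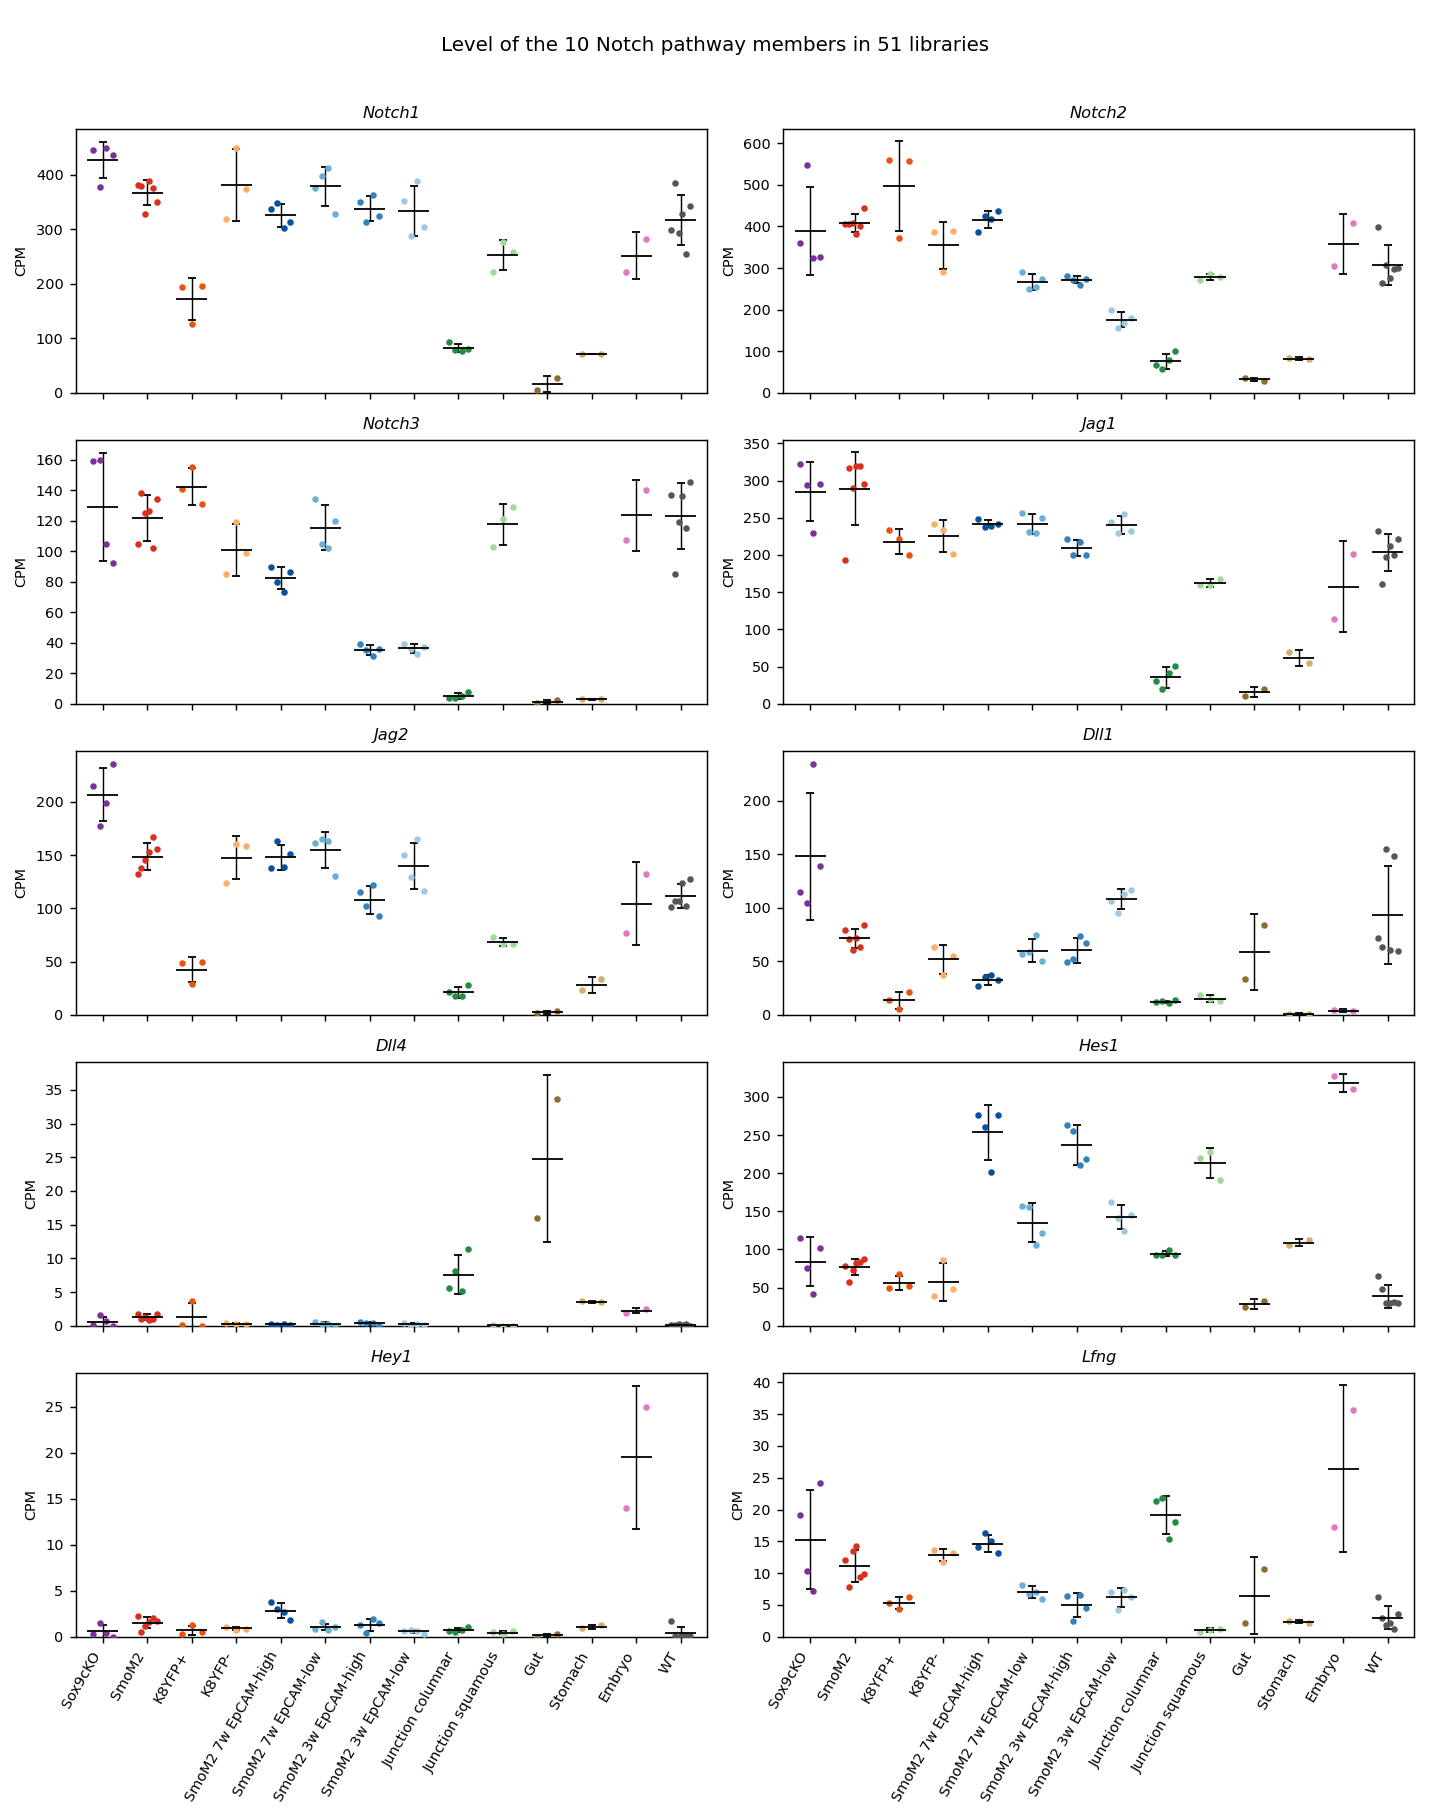
Each panel plots 1 member in CPM of the library total on a linear axis starting at 0, by group. Points are libraries, the long bar is the group mean and the whiskers are 1 SD. Notch1 to Jag2 sit low in junction columnar, gut and stomach cells, Dll4 is highest in the 2 gut libraries (16.0 and 33.6 CPM), and Hes1 and Hey1 peak in the 2 embryonic libraries.

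Levels of different genes were compared per kilobase of exon, as shares of the family total. Notch2 took the largest receptor share in most groups, 60.3% ± 4.55 in K8YFP+, 48.1% ± 1.91 in SmoM2 and 43.1% ± 4.25 in WT (SD, n = 3, 6 and 6). Notch1 led in 3w EpCAM-low cells, at 52.9% ± 3.57, and took 40.6% ± 4.04 in 7w EpCAM-low cells, close to the 37.7% ± 1.90 of Notch2 there (n = 4 each). Notch3 took 4.49% ± 1.05 of the total in Junction columnar, 3.97% ± 2.30 in Gut and 2.72% ± 0.0173 in Stomach, and 23.0% ± 3.24 in WT. Jag1 led the ligands in 13 of the 14 groups, up to 79.6% ± 5.84 in K8YFP+. In Gut, Dll1 took 58.7% ± 3.30 and Dll4 28.0% ± 1.77, with Jag1 at 11.8% ± 1.53 (n = 2). The receptor total was 4.31 CPM per kb in Gut and 12.9 CPM per kb in Stomach, and lay between 44.2 and 82.1 CPM per kb in the 11 squamous and embryonic groups.

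**Figure D2:**
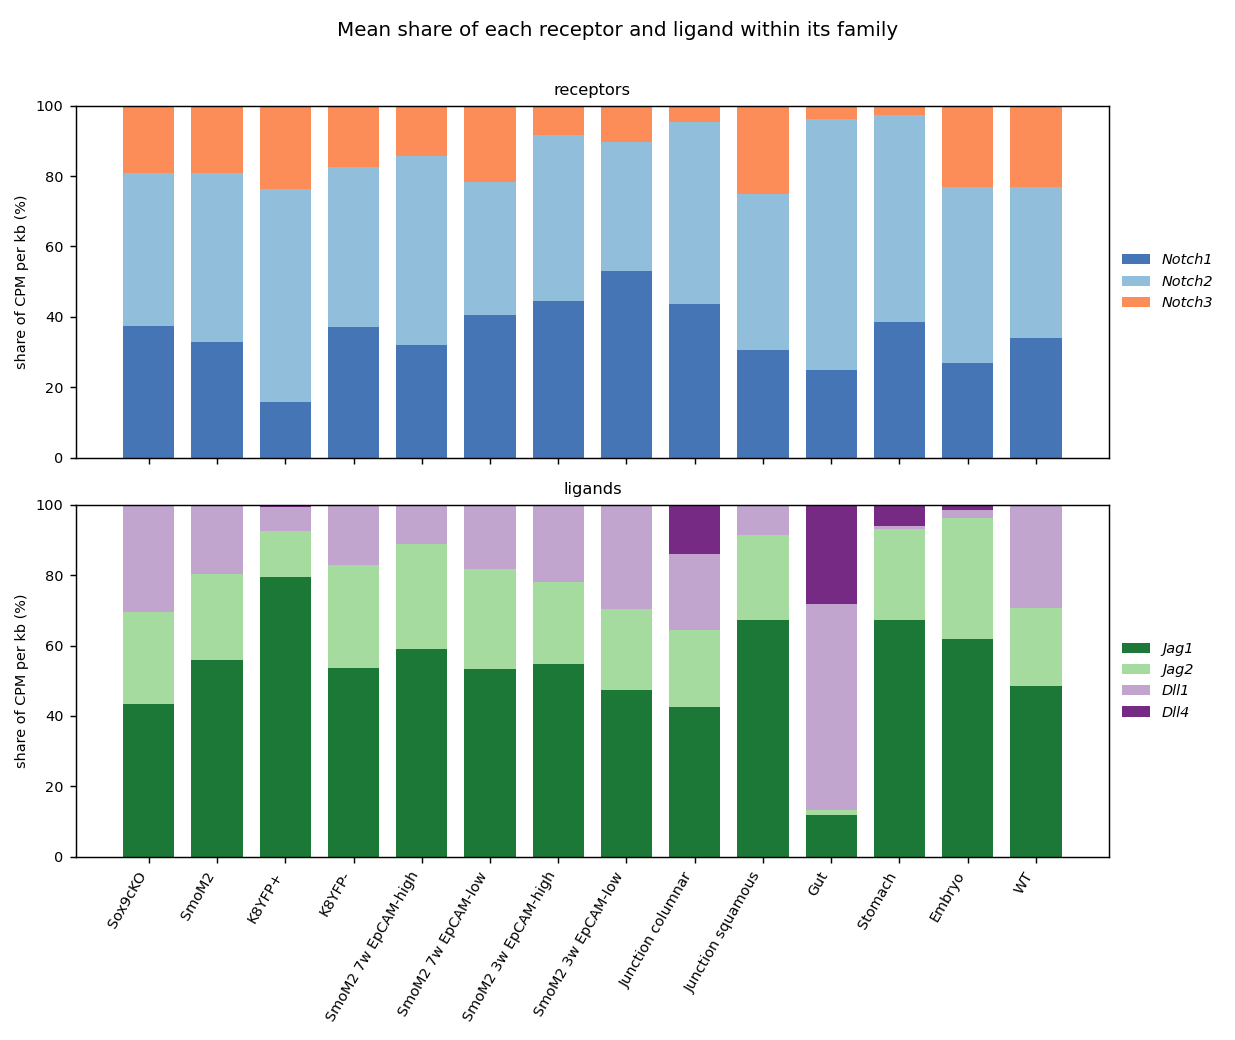
Stacked bars give the mean share of each receptor (top) and ligand (bottom) in the family's summed CPM per kb, in percent, by group. Notch2 is the widest band in K8YFP+ (60.3%), Notch3 holds 2.72% to 4.49% in gut, stomach and junction columnar cells, and Dll1 and Dll4 fill most of the gut bar.

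The first comparison asks what SmoM2 does in oesophageal cells, with the EpCAM gate changed at the same time. Of the 9 members tested, 6 were higher in SmoM2 cells than in WT cells and 0 lower (edgeR quasi-likelihood test, Benjamini-Hochberg adjusted p under 0.05, here and below); 26.2% of the 16224 genes tested were called higher, 23.3% lower and 49.5% in either direction. The members' median log2 fold change was 0.29, against 0.01 over all genes tested. Lfng, the fringe enzyme, had a lowest, median and highest level of 7.82, 10.9 and 14.3 CPM in SmoM2 libraries, against 1.22, 2.5 and 6.21 CPM in WT libraries. No SmoM2 library overlapped a WT library, and Lfng rose by 1.78 ± 0.30 (log2 fold change ± SE, adjusted p = 0.000189). Hes1, the repressor most used as a Notch readout, had 57.7, 80.2 and 87.2 CPM in SmoM2 libraries, against 29.2, 30.3 and 65.0 CPM in WT libraries. The ranges met only through WT library 1, and Hes1 rose by 0.86 ± 0.20 (adjusted p = 0.00247). Hey1, a sister repressor, had 0.521, 1.65 and 2.21 CPM in SmoM2 libraries, against 0, 0.116 and 1.70 CPM in WT libraries. WT library 1 again held the WT maximum, and Hey1 rose by 1.93 ± 0.65 (adjusted p = 0.021), or by 3.53 without that library.

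The Jagged ligands differed less. Jag2 had 132, 149 and 167 CPM in SmoM2 libraries, against 101, 107 and 128 CPM in WT libraries, with no overlap (log2 fold change 0.29 ± 0.08, adjusted p = 0.00671). Jag1 had 193, 306 and 320 CPM in SmoM2 libraries, against 161, 206 and 232 CPM in WT libraries (0.37 ± 0.11, adjusted p = 0.0128). For Jag1, SmoM2 library 1 was the low one and lay inside the WT range. Notch2 was higher by 0.28 ± 0.10 (adjusted p = 0.0346), with 382, 406 and 445 CPM in SmoM2 libraries, against 265, 298 and 398 CPM in WT libraries. Notch1 (0.09), Notch3 (-0.14) and Dll1 (-0.52, adjusted p = 0.0978) were not called. Dll1 split the WT libraries, with 155 and 149 CPM in libraries 3 and 5 and 60.1 to 72.1 CPM in the other 4. Dll4 was too low for the count filter, but its lowest SmoM2 library, at 0.895 CPM, lay above its highest WT library, at 0.304 CPM. Summed counts of Dll4 were 79 in SmoM2 and 8 in WT, and with no filter its log2 fold change was 2.80 (adjusted p = 7.23e-05). Other EpCAM-high SmoM2 cells averaged 0.346 CPM of Dll4 at 3w, 0.214 CPM at 7w and 0.262 CPM in K8YFP-. The K8YFP+ mean was 1.29 ± 2.11 CPM and that of Sox9cKO 0.572 ± 0.695 CPM (SD). These compare with 1.27 ± 0.407 CPM in SmoM2 and 0.149 ± 0.107 CPM in WT. The endothelial marker sum, over 8 genes with none at 0 in either group, was 13.2 to 23.0 CPM in SmoM2 libraries and 10.7 to 16.4 CPM in WT libraries, and its part in the Dll4 difference was not tested. With the near-repeat WT libraries summed, 3 of the 6 calls remained; Notch2, Jag1 and Hey1 then had adjusted p = 0.196, 0.0631 and 0.0713. Without WT library 5 Hey1 had adjusted p = 0.051, and without WT library 4 or 6 Dll1 passed as lower (-0.64 each, adjusted p = 0.0478 and 0.0464). Notch3 passed as lower without WT library 2 (-0.23, adjusted p = 0.0447). Notch2 was called in 6 of its 18 alternatives, and Jag2 lost its call with no count filter (adjusted p = 0.0818) and in a fit of all 51 libraries (adjusted p = 0.0523). Squamous differentiation markers were lower in SmoM2 cells in 4 of 8 genes tested, and squamous basal markers lower in 4 and higher in 1 of 7. Columnar markers were higher in 4 of 4 tested. Their sum over 5 genes was 9.87 to 40.8 CPM in SmoM2 libraries and 5.3 to 8.56 CPM in WT libraries. In junction columnar libraries that sum was 2530 to 3830 CPM. The part of these 3 marker lists in the results was not tested.

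Of the 42 other pathway genes, 33 were tested here, of which 12 were higher and 4 lower in SmoM2 cells. Their median log2 fold change was 0.02, and over all genes tested 26.2% were called higher and 23.3% lower. Dtx4, of the Deltex family of E3 ligases that act on Notch, was at 19.4 to 47.1 CPM in SmoM2 libraries, against 0.373 to 1.30 CPM in WT libraries, a log2 fold change of 5.04 ± 0.31 (adjusted p = 6.39e-09). Numbl, a relative of the Notch inhibitor Numb, rose by 2.97 ± 0.16 (adjusted p = 2.19e-09), and Dtx3, another Deltex protein, by 1.47 ± 0.16 (adjusted p = 2.75e-06).

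Within SmoM2 mice, cells with the Krt8 reporter were set against cells without it. In K8YFP+ cells Notch2 and Notch3 were higher and Notch1, Jag2, Dll1 and Lfng lower, which is 6 of 8 members tested; 19.9% of the 15598 genes tested were called, 13.1% higher and 6.83% lower. The members' median log2 fold change was -0.21, against -0.03 over all genes. Jag2, the other Jagged ligand, had 48.6, 28.6 and 49.8 CPM in K8YFP+ libraries, against 124, 160 and 159 CPM in K8YFP- libraries. Every K8YFP+ library was below every K8YFP- library, and Jag2 fell by 1.4 ± 0.18 on the log2 scale (adjusted p = 0.00365). Dll1 had 14, 5.60 and 21.0 CPM in K8YFP+ libraries, against 63.2, 37.0 and 55.2 CPM in K8YFP- libraries. These groups did not overlap either, and Dll1 fell by 1.51 ± 0.37 (adjusted p = 0.0262). Lfng had 5.37, 4.36 and 6.29 CPM in K8YFP+ libraries, against 13.6, 11.8 and 13.2 CPM in K8YFP- libraries, and fell by 0.87 ± 0.24 (adjusted p = 0.0388).

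The receptors moved in opposite directions. Notch1 had 194, 127 and 196 CPM in K8YFP+ libraries, against 319, 450 and 374 CPM in K8YFP- libraries (-0.75 ± 0.17, adjusted p = 0.0191), without overlap. Notch2 had 560, 371 and 558 CPM in K8YFP+ libraries, against 386, 290 and 389 CPM in K8YFP- libraries (0.86 ± 0.18, adjusted p = 0.0169). Only K8YFP+ library 2, the shallowest of the series, overlapped with the K8YFP- range of Notch2. Notch3 had 141, 155 and 131 CPM in K8YFP+ libraries, against 85.0, 119 and 99 CPM in K8YFP- libraries, without overlap (0.90 ± 0.17, adjusted p = 0.0117). These folds lie above the ratios of the CPM means, for Notch1 as a smaller fall, because the test scales libraries by TMM factors. With TMM factors taken over all 51 libraries, not those of this test, Notch3 averaged 170 CPM in K8YFP+ cells in place of 143. Jag1, whose CPM by library totals was slightly lower in each K8YFP+ library than in its same-numbered K8YFP- library, had a positive TMM-scaled fold (0.34, adjusted p = 0.136); it and Hes1 (0.36, adjusted p = 0.428) were not called; Dll4 and Hey1 were under the filter. With same-numbered libraries as blocks, which deviated together in these groups, Hes1 was also called higher (0.43, adjusted p = 0.0379), though by library totals it averaged 56.0 ± 9.83 CPM in K8YFP+ and 57.7 ± 24.7 CPM in K8YFP- cells (SD, n = 3 each), and 4785 genes were called in place of 3110. Leaving out 1 library at a time left 1 to 5 members called; there were 3 without K8YFP+ library 1 and 1, Jag2, without K8YFP- library 3, when Notch3 had adjusted p = 0.0571. Notch1 lost its call without K8YFP- library 2 or 3 (adjusted p = 0.0508 and 0.0602). Notch2 lost it without K8YFP+ library 1 or 3 or K8YFP- library 3 (0.0579 to 0.0709), and Dll1 without K8YFP+ library 1 or K8YFP- library 1 or 3 (0.063 to 0.0828). Lfng was called in 3 of 11 alternatives, with an adjusted p of up to 0.121 in the others.

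Markers of other cells moved with this sort. The fibroblast sum over 6 genes was 56.5, 520 and 276 CPM in K8YFP+ libraries, against 11.0, 67.5 and 56.3 CPM in K8YFP- libraries, and 4 of the 6 genes were called higher. The endothelial sum over 8 genes was 28.3, 127 and 43.2 CPM in K8YFP+ libraries, against 18.9, 16.6 and 20.6 CPM in K8YFP- libraries. The mural sum over 5 genes (smooth muscle and pericytes, which use Notch3) was 41.3, 202 and 24.6 CPM in K8YFP+ libraries, against 32.6, 102 and 71.7 CPM in K8YFP- libraries. No marker of these 3 lists was at 0 in either group. K8YFP+ library 2 was the highest in all 3 sums and for Notch3 and Dll4 (3.73 CPM, 6 counts), while K8YFP+ library 3 had the lowest mural sum of the 6 libraries and 131 CPM of Notch3. The part of these cells in the results was not tested, and in sorted bulk cells fewer cells of a type cannot be told apart from less RNA per cell. Squamous basal markers were lower in 6 of 7, squamous differentiation markers higher in 7 of 8 and columnar markers higher in 5 of 5. The columnar sum over 5 genes was 34.9 to 208 CPM in K8YFP+ libraries, against 2530 to 3830 CPM in junction columnar libraries.

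Of 32 other pathway genes tested in this sort, 3 were higher and 5 lower, against 13.1% higher and 6.83% lower over all genes. Nrarp, a Notch target that feeds back on the pathway, had 40.7, 66.0 and 48.0 CPM in K8YFP+ libraries, against 15.2, 41.2 and 18.0 CPM in K8YFP- libraries (1.46 ± 0.40, adjusted p = 0.0385). Psenen, a subunit of the gamma-secretase that cuts Notch, was higher by 1.08 ± 0.31 (adjusted p = 0.0449). Dlk2, a Delta-like relative that lacks the receptor-activating domain, fell by 1.48 ± 0.38 (adjusted p = 0.0321).

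**Figure D3:**
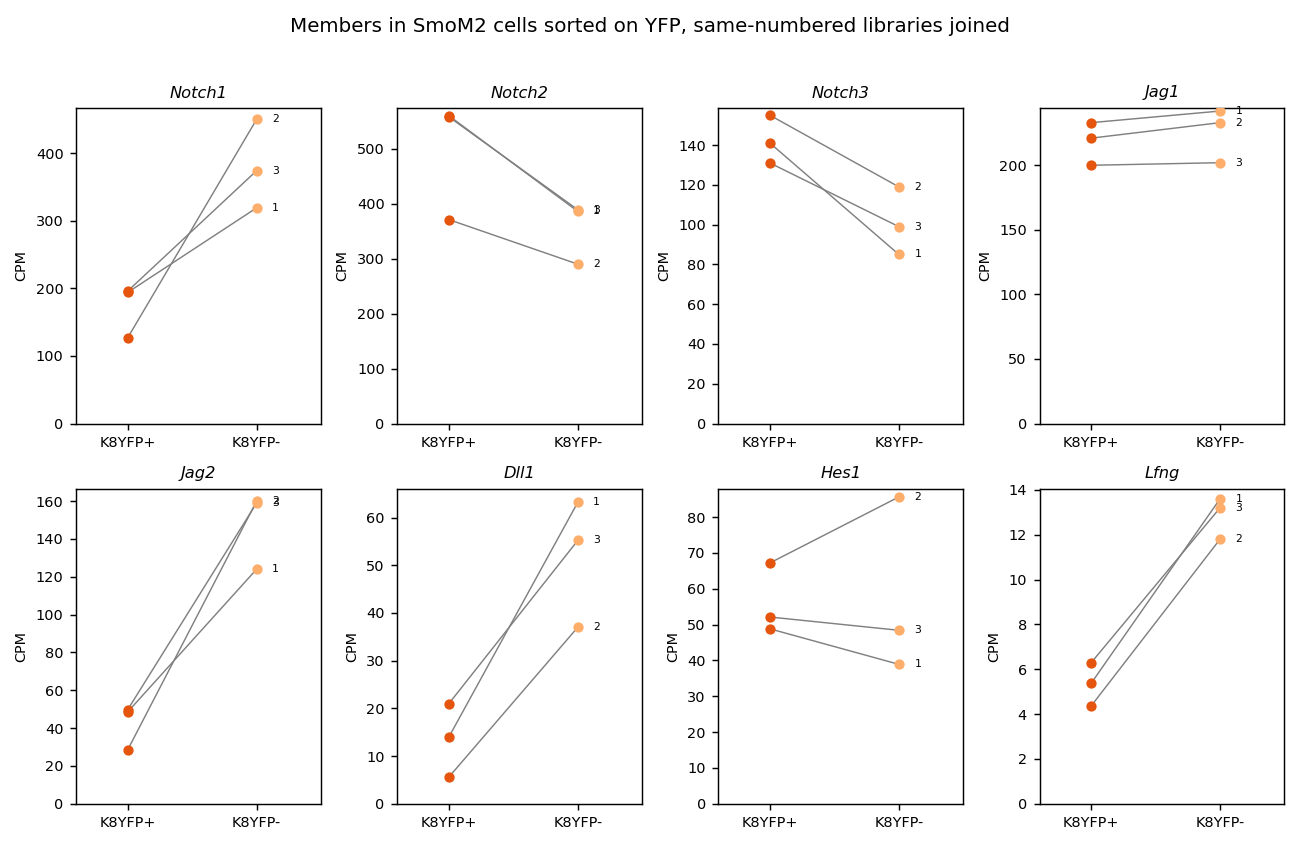
The plot gives 8 members in CPM in each K8YFP+ (left) and K8YFP- (right) library, with same-numbered libraries joined by a line and the number written at the right; axes start at 0. Lines for Notch1, Jag2, Dll1 and Lfng are lower at the K8YFP+ end in 3 of 3 pairs, and those for Notch2 and Notch3 are higher there.

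K8YFP+ cells were also set against normal columnar cells of the junction, which differ in SmoM2 and in tissue but share the Krt8YFP reporter and an EpCAM-high gate. Here 7 of 10 members were called, with a background of 60.8% of 22370 genes (27.4% higher, 33.4% lower), and their median was 1.05 on the log2 scale, against -0.15 over all genes. Notch3 (5.27 ± 0.21), Notch2 (3.13 ± 0.17), Jag1 (3.05 ± 0.18), Notch1 (1.48 ± 0.16) and Jag2 (1.46 ± 0.17) were higher in K8YFP+ cells, with adjusted p of 2.82e-10 or less. Dll4 (-3.06 ± 0.77, adjusted p = 0.000589) and Lfng (-1.41 ± 0.39, adjusted p = 0.00183) were lower. The K8YFP+ level of Dll4 rests on 7 counts, 6 of them in library 2, and its fold was -5.70 without that library and -2.09 without library 1, and it also moved towards 0 without library 3. Junction columnar Dll4 was 5.53, 8.17, 5.13 and 11.4 CPM, above the 3.73 CPM of the highest K8YFP+ library. Nrarp was again higher in K8YFP+ cells, by 3.32 ± 0.35 (adjusted p = 6.29e-11), Dlk2 by 3.94 ± 0.45 (adjusted p = 3.56e-10), and Dlk1, called lower with 0 counts in K8YFP+ libraries, was 0.461 to 1.63 CPM in junction columnar libraries. Fibroblast and mural markers were higher in K8YFP+ cells in 6 of 6 and 5 of 5 genes tested, and squamous differentiation markers in 8 of 8. Columnar markers were lower in 5 of 5, and immune markers lower in 3 and higher in 1 of 5, with a sum of 12.8 to 28.0 CPM in K8YFP+ libraries, against 183 to 416 CPM in junction columnar libraries. Their part in these results was not tested.

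The libraries labelled Sox9cKO were set against SmoM2 libraries. Jag2 and Dll1 were higher in Sox9cKO cells and the other 8 members, all tested, were not called; 2.66% of the 17047 genes tested were called, 1.18% higher and 1.48% lower. The members' median was 0.15, against 0 over all genes. Jag2 had 215, 177, 199 and 236 CPM in Sox9cKO libraries, and a lowest, median and highest level of 132, 149 and 167 CPM in SmoM2 libraries. The groups did not overlap, and Jag2 rose by 0.52 ± 0.09 (adjusted p = 0.0132). Dll1 had 115, 105, 235 and 139 CPM in Sox9cKO libraries, against 60.2, 71.5 and 83.6 CPM in SmoM2 libraries, without overlap (1.1 ± 0.21, adjusted p = 0.0164). The highest Dll1 came from the library labelled Sox9cKO 3, whose Sox9 level lay inside the SmoM2 range. Without that library Dll1 was higher by 0.76 (adjusted p = 0.0199) and Jag2 kept its call. With the shared replicate number as a block neither was called, with adjusted p = 0.0685 for Jag2 and 0.148 for Dll1. The number was not found to pair these libraries, as same-numbered deviations from the group means correlated at -0.143 to 0.267. Without Sox9cKO library 2, which was low in Notch1 (378 CPM) and high in Notch2 (547 CPM), 4 members were called, adding Dll4 (-2.37, adjusted p = 0.0426) and Hey1 (-2.65, adjusted p = 0.026). Fibroblast markers summed to 55.8, 29.2, 168 and 40.5 CPM in Sox9cKO libraries, against 16.6 to 29.8 CPM in SmoM2 libraries, and 1 of 6 was called higher; mural markers summed to 67.2 to 94.1 CPM, against 16.7 to 59.2 CPM. Columnar markers were lower in 3 of 5 genes tested, with a sum of 8.62 to 11.6 CPM in Sox9cKO libraries. That sum was 9.87 to 40.8 CPM in SmoM2 libraries. Squamous basal markers summed to 9070 to 13200 CPM in Sox9cKO libraries, against 6730 to 8880 CPM in SmoM2 libraries, without overlap. Of the 7 basal genes, 1 was called higher and 0 lower. The part of the fibroblast, mural, columnar and squamous basal markers in the results was not tested. Sox9 itself was not called in this comparison (-0.62 on the log2 scale). Of the other pathway genes, 1 of 35 tested was called: Rfng, the radical fringe enzyme, was higher by 0.68 ± 0.12 (adjusted p = 0.013).

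In the time series, EpCAM-high cells were set against EpCAM-low cells of the same SmoM2 mice groups at each time. The Hedgehog target Gli1 followed the gate, at 143 to 182 CPM in 7w EpCAM-high libraries, against 6.13 to 11.0 CPM in 7w EpCAM-low libraries, and at 98.5 to 122 CPM in 3w EpCAM-high libraries, against 15.7 to 17.6 CPM in 3w EpCAM-low libraries. At 7w, 3 of 9 members tested were higher in EpCAM-high cells and 3 lower, with 32.3% of 17263 genes called (15.5% higher, 16.8% lower), and the members' median was -0.05, against -0.02 over all genes. At 3w, 2 were higher and 3 lower, with 15.2% of genes called (7.37% higher, 7.84% lower), and the median was -0.09, against -0.01. Notch2 and Hes1 were higher and Dll1 lower in EpCAM-high cells at both times.

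Notch2 had 387, 425, 417 and 437 CPM in 7w EpCAM-high libraries, against 291, 250, 254 and 273 CPM in 7w EpCAM-low libraries (0.60 ± 0.11, adjusted p = 0.00015). At 3w it had 281, 272, 260 and 274 CPM in EpCAM-high libraries, against 198, 155, 169 and 180 CPM in EpCAM-low libraries (0.58 ± 0.11, adjusted p = 0.000555). The gates did not overlap at either time, and the difference of the differences was 0.02 ± 0.15. Hes1 had 276, 261, 201 and 276 CPM in 7w EpCAM-high libraries, against 157, 156, 106 and 121 CPM in 7w EpCAM-low libraries (0.87 ± 0.20, adjusted p = 0.00179). At 3w it had 263, 256, 211 and 219 CPM in EpCAM-high libraries, against 162, 141, 124 and 145 CPM in EpCAM-low libraries (0.68 ± 0.20, adjusted p = 0.0223), again without overlap. Dll1 had 26.5, 35.0, 37.3 and 32.3 CPM in 7w EpCAM-high libraries, against 56.4, 58.7, 75.0 and 50.0 CPM in 7w EpCAM-low libraries (-0.92 ± 0.28, adjusted p = 0.0128). At 3w Dll1 had 49.3, 51.9, 73.4 and 67.2 CPM in EpCAM-high libraries, against 106, 95.6, 113 and 117 CPM in EpCAM-low libraries (-0.88 ± 0.27, adjusted p = 0.0236). The ligand was thus lower in every EpCAM-high library than in any EpCAM-low library of its time.

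Other members differed at 1 of the times. Lfng had 14.1, 16.3, 15.1 and 13.1 CPM in 7w EpCAM-high libraries, against 8.17, 6.72, 7.04 and 5.94 CPM in 7w EpCAM-low libraries (1.01 ± 0.30, adjusted p = 0.0106). At 3w it was 6.40, 2.5, 6.57 and 4.47 CPM in EpCAM-high libraries, against 6.98, 4.12, 7.38 and 6.30 CPM in EpCAM-low libraries, with overlap and no call (-0.36, adjusted p = 0.511). Its gate difference was 1.38 ± 0.44 larger at 7w than at 3w on the log2 scale, which did not pass (adjusted p = 0.108) but did with no count filter (adjusted p = 0.0115) and in DESeq2 (adjusted p = 0.047). No other member passed this interaction test in the setting used here, in which 2.31% of genes were called (1.55% higher, 0.759% lower); Notch3 (-0.45) and Jag2 (0.31) had unadjusted p = 0.0202 and 0.0344. Notch3 was lower in EpCAM-high cells at 7w (-0.53 ± 0.12, adjusted p = 0.00153) and was not called at 3w (-0.09). Jag2 (-0.43 ± 0.10, adjusted p = 0.00369) and Jag1 (-0.25 ± 0.08, adjusted p = 0.0452) were lower in EpCAM-high cells at 3w, and Notch1 (-0.27 ± 0.10, adjusted p = 0.0458) at 7w. At 3w the replicate numbers pair the gates, and with them as blocks Jag1 (adjusted p = 0.0834) and Dll1 (adjusted p = 0.0511) lost their calls; Jag2 lost its call in the fit of all 51 libraries (adjusted p = 0.0617). The Jag1 and Notch1 calls each held in 2 of 14 alternatives. Hes1 at 3w lost its call without EpCAM-high library 1 or 2 or EpCAM-low library 2 or 3 (adjusted p = 0.0503 to 0.0804), and Dll1 at 3w without EpCAM-high library 1 or 2 or EpCAM-low library 3 or 4 (0.0525 to 0.0795). At 7w Dll1 lost it without EpCAM-low library 3 (adjusted p = 0.0514). The squamous differentiation sum over 8 genes was 5430 to 7450 CPM in 7w EpCAM-high libraries, against 14200 to 16400 CPM in 7w EpCAM-low libraries. At 3w it was 3380 to 3980 CPM in EpCAM-high libraries, against 5580 to 6530 CPM in EpCAM-low libraries. Of these 8 genes, 4 were lower in EpCAM-high cells at 7w, and 3 lower and 1 higher at 3w. Of 7 squamous basal genes, 2 were lower and 1 higher at 7w, and 3 lower and 0 higher at 3w. The part of both marker lists in these results was not tested.

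With time, Notch3 was higher at 7w in both gates. It had 89.7, 79.8, 73.4 and 86.1 CPM in 7w EpCAM-high libraries, against 39.3, 35.3, 31 and 35.6 CPM in 3w EpCAM-high libraries (1.17 ± 0.13, adjusted p = 2.73e-07). In EpCAM-low cells it had 134, 105, 102 and 120 CPM at 7w, against 39.3, 36.2, 32.6 and 37.0 CPM at 3w (1.61 ± 0.13, adjusted p = 5.84e-09). Every 7w library thus lay above every 3w library. In EpCAM-high cells 5 of 9 members were called between the times, 4 of them higher at 7w, with 41.4% of genes called (22% higher, 19.4% lower), and the members' median was 0.40, against 0.02 over all genes; in EpCAM-low cells 3 of 9 were called, 2 of them higher, with 38% of genes called (19.5% higher, 18.4% lower) and a median of 0.11, against 0.02. Notch2 was higher at 7w in both gates (0.56 ± 0.11 in EpCAM-high and 0.55 ± 0.11 in EpCAM-low cells), and Dll1 lower in both (-0.94 ± 0.28 and -0.90 ± 0.27). Lfng (1.49 ± 0.30, adjusted p = 0.000419) and Jag2 (0.40 ± 0.10, adjusted p = 0.00253) were higher at 7w in EpCAM-high cells; in EpCAM-low cells they were 0.11 and 0.09 and not called. Hes1 was not called in either gate (0.04 and -0.15). Of 33 other pathway genes tested, 10 were higher and 6 lower at 7w in EpCAM-high cells and 11 higher and 10 lower in EpCAM-low cells. Nrarp was higher in both (1.06 ± 0.30 and 1.33 ± 0.30, adjusted p = 0.00641 and 0.0011). In EpCAM-high cells Dtx4 (1.13 ± 0.19) and Poglut1, which adds glucose to Notch (0.86 ± 0.15), were higher too, and in EpCAM-low cells Maml3, a Mastermind-like co-activator (0.89 ± 0.14), and Aph1b, of gamma-secretase (0.88 ± 0.15). Squamous differentiation markers were higher at 7w in 6 of 8 genes in EpCAM-high cells and in 8 of 8 in EpCAM-low cells. The mural sum was 46.2 to 63.4 CPM at 7w and 24.9 to 40.0 CPM at 3w in EpCAM-high libraries. In EpCAM-low libraries it was 27.0 to 32.6 CPM at 7w and 29.4 to 36.7 CPM at 3w. The part of the squamous differentiation and mural markers in these results was not tested.

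**Figure D4:**
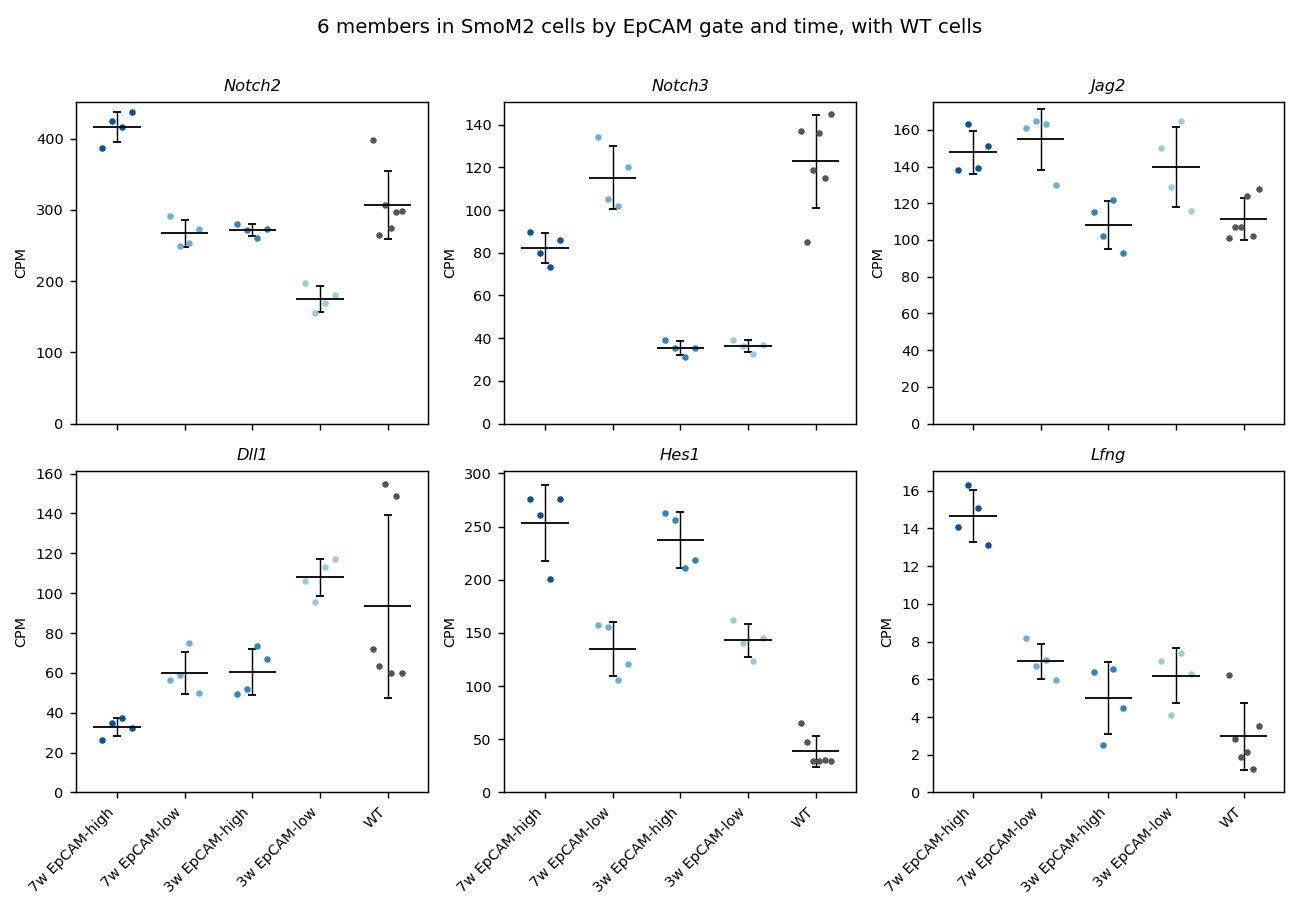
The plot gives 6 members in CPM, axes from 0, in SmoM2 cells by gate and time and in WT cells; points are libraries, long bars means and whiskers 1 SD. Notch2 and Hes1 are higher and Dll1 lower in EpCAM-high than in EpCAM-low cells at both times, Lfng stands out in 7w EpCAM-high cells (13.1 to 16.3 CPM), and Notch3 is low in 3w cells of both gates (31 to 39.3 CPM).

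EpCAM-low SmoM2 cells can be set against WT cells with the gate held. At 7w, 5 of 9 members were called, with 40.4% of genes called (19.4% higher, 21% lower), and at 3w 5 of 9, with 47.4% of genes called (23.1% higher, 24.3% lower); the medians were 0.14 and 0.18, against 0.01 over all genes at either time. Hes1 was higher in EpCAM-low cells by 1.68 ± 0.19 at 7w (adjusted p = 3.7e-07) and by 1.82 ± 0.19 at 3w (adjusted p = 5.9e-08), and none of these libraries overlapped with WT. Lfng was higher by 1.13 ± 0.30 and 1.02 ± 0.30, and Jag2 by 0.35 ± 0.09 and 0.27 ± 0.09. Notch3 was lower at 3w (-1.82 ± 0.12, adjusted p = 7.51e-11) and not called at 7w (-0.21, adjusted p = 0.135), and Notch2 was lower at both, by 0.33 ± 0.10 at 7w and 0.87 ± 0.10 at 3w on the log2 scale. Dll1 was lower at 7w (-0.77 ± 0.25, adjusted p = 0.0159). It had 50.0 to 75.0 CPM in 7w EpCAM-low libraries, against 60.1 to 155 CPM in WT libraries. Only the near-repeat WT libraries 3 and 5 lay above that 7w range, and the other WT libraries lay inside it. Squamous differentiation markers were lower than in WT in 4 of 8 genes at 7w (median -0.48 on the log2 scale) and in 8 of 8 at 3w (median -1.63), and their part in these results was not tested. Some of these calls were lost: in the fit of all 51 libraries Notch2 had adjusted p = 0.073 at 7w and Jag2 0.134 at 3w, with no count filter Jag2 had 0.0842 at 3w, without EpCAM-low library 4 Dll1 had adjusted p = 0.0508 at 7w, without EpCAM-low library 2 Notch2 had 0.0519 at 7w, and without EpCAM-low library 1 or 3 Jag2 had 0.0555 and 0.1 at 3w. Without WT library 1, Hey1 passed as higher (2.92 at 7w and 2.18 at 3w, adjusted p = 0.000167 and 0.00487), as did Jag1 (0.18 and 0.24, adjusted p = 0.0374 and 0.00585). Without WT library 2, Notch1 (0.20, adjusted p = 0.0495) and Notch3 (-0.30, adjusted p = 0.0089) passed at 7w. These comparisons share the WT libraries with each other and with that of SmoM2 against WT. The size of the Hes1 values moves with the library set: EpCAM-high SmoM2 cells averaged 254 ± 35.7 CPM at 7w and 237 ± 25.9 CPM at 3w (SD, n = 4 each), against 77.0 ± 10.7 CPM in the SmoM2 group (n = 6), which has the same genotype and, by its label, the same gate. Genotype and library set cannot be told apart for Hes1 in these comparisons. Of the 33 other pathway genes, 8 were higher and 6 lower than in WT at 7w and 9 higher and 10 lower at 3w. At 7w Dtx4 (1.62 ± 0.30), Dlk2 (1.23 ± 0.17) and Aph1c (1.15 ± 0.34) led, and at 3w Numbl (1.49 ± 0.14), Dtx4 (1.30 ± 0.31) and, lower, the protease subunit Psen2 (-0.98 ± 0.24).

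Between the gates, 6 other pathway genes were higher and 4 lower in EpCAM-high cells at 7w and 5 higher and 2 lower at 3w, of 33 tested. Over all genes, 15.5% were called higher and 16.8% lower at 7w. At 3w these shares were 7.37% and 7.84%. Dtx4 was higher in EpCAM-high than in EpCAM-low cells by 3.08 ± 0.23 at 7w and 2.27 ± 0.25 at 3w (adjusted p = 1.89e-10 and 4.04e-07). It had 17.5 to 26.9 CPM in 7w EpCAM-high libraries, against 1.88 to 3.36 CPM in 7w EpCAM-low libraries. Maml3 was higher by 0.63 ± 0.14 at 7w (adjusted p = 0.000886) and Dlk2 lower by 0.89 ± 0.19 on the log2 scale at 3w (adjusted p = 0.00171). Numbl was higher by 1.71 ± 0.15 and 0.89 ± 0.14 at 7w and 3w. It was the 1 of 33 other pathway genes called in the interaction (0.82 ± 0.20, adjusted p = 0.027), where 2.31% of all genes were called.

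At the junction of oesophagus and stomach, normal columnar cells were set against normal squamous cells. All 9 members tested were called, 2 higher and 7 lower in columnar cells, with 74.4% of 17185 genes called (39.2% higher, 35.2% lower), and their median was -1.92, against 0.08 over all genes. Notch3 had 3.69, 3.74, 4.90 and 7.59 CPM in columnar libraries, against 103, 121 and 129 CPM in squamous libraries (-4.88 ± 0.19, adjusted p = 1.27e-09). Jag1 (-2.52 ± 0.23), Notch2 (-2.19 ± 0.15), Jag2 (-2.02 ± 0.14), Notch1 (-1.92 ± 0.10) and Hes1 (-1.48 ± 0.09) were each lower, with adjusted p of 1.31e-06 or less and no overlap between the cell types. Dll1 was lower by a smaller step (-0.60 ± 0.17, adjusted p = 0.00708), with 11.8, 12.8, 11.2 and 13.4 CPM in columnar libraries, against 18.6, 14.3 and 12.4 CPM in squamous libraries, which overlap; in a fit of all 51 libraries it was not called (adjusted p = 0.137). Lfng had 21.4, 21.8, 15.4 and 18.1 CPM in columnar libraries, against 0.783, 1.08 and 1.28 CPM in squamous libraries (3.86 ± 0.25, adjusted p = 7.97e-08). Dll4 had 5.53, 8.17, 5.13 and 11.4 CPM in columnar libraries, against 0.157, 0 and 0 CPM in squamous libraries (6.48 ± 0.73, adjusted p = 4.88e-06). The squamous value rests on 1 count, against 169 in columnar cells, a ratio per total count of 152 (95% exact interval 26.8 to 6020, counting error only), and without squamous library 1, which holds that count, the fold was 8.39. Hey1 was under the filter, with 16 and 9 counts. Immune markers summed to 183 to 416 CPM over 6 genes in columnar libraries, against 14.7 to 21.1 CPM in squamous libraries, and endothelial markers over 8 genes to 29.4 to 44.9 CPM, against 10.9 to 14.7 CPM with 3 of the 8 at 0. Their part in the Dll4 and Lfng differences was not tested. Of 34 other pathway genes tested, 11 were higher and 15 lower. Dtx4 (4.64 ± 0.24) and the manic fringe enzyme Mfng (4.23 ± 0.61) had the largest increases, and Dlk2 the largest decrease (-4.07 ± 0.44), with adjusted p = 1.43e-08, 4.25e-05 and 5.35e-06.

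Gut and stomach cells were compared as 2 normal columnar epithelia, with 2 libraries each and the spread estimated over all 51 libraries. In Gut, 3 of 10 members were higher and 5 lower, with 31% of 22370 genes called (15.6% higher, 15.4% lower), and the median was -1.4, against -0.03 over all genes. Dll1 had 33.9 and 84.0 CPM in Gut, against 1.05 and 0.313 CPM in Stomach (6.37 ± 0.64, adjusted p = 5.67e-11). Dll4 had 16.0 and 33.6 CPM in Gut, against 3.67 and 3.45 CPM in Stomach (3.00 ± 0.69, adjusted p = 0.000577). Both Delta-like ligands were higher in each gut library than in either stomach library. Lfng had 2.14 and 10.7 CPM in Gut, against 2.49 and 2.19 CPM in Stomach; its call (1.69 ± 0.59, adjusted p = 0.0241) was lost without gut library 2 (0.24, adjusted p = 0.925) and without stomach library 1 or 2 (1.72 and 1.65, adjusted p = 0.15 and 0.0738). Jag2 (-3.27 ± 0.32), Notch1 (-1.89 ± 0.25), Jag1 (-1.76 ± 0.26), Hes1 (-1.70 ± 0.34) and Notch2 (-1.11 ± 0.23) were lower in Gut, without overlap. Without gut library 2 the fold of Notch1 was -3.16 and that of Jag2 -3.88, and that of Dll1 was 5.75; without stomach library 1 Dll1 had 7.62. In a fit of these 4 libraries alone 5 members were called, and Notch1 and Notch2 lost their calls (adjusted p = 0.062 and 0.0752). Endothelial markers summed to 61.3 and 88.1 CPM in Gut, against 24.0 and 29.8 CPM in Stomach with 4 of 8 genes at 0. Immune markers summed to 544 and 648 CPM, against 3.15 and 18.8 CPM. Other sums differed between the 2 gut libraries, with 3.56 and 116 CPM of fibroblast and 0.713 and 17.3 CPM of mural markers. Gastric markers in Gut were 5.7 and 322 CPM and columnar markers 1680 and 7190 CPM. Fibroblast markers were called higher in Gut in 3 of 6 genes. The part of these markers in the Dll4 difference and in the other members' results was not tested. Among 39 other pathway genes, 8 were higher and 11 lower. Neurl1a, an E3 ligase gene, was called lower, with 0 counts in Gut and 9 in Stomach, and Dtx1 higher, with 9 counts in Gut and 1 in Stomach. Notch4, a receptor known from endothelium, was higher in Gut by 3.06 ± 0.64 (adjusted p = 0.000156), with 6.06 and 13.2 CPM in Gut, against 1.97 and 0.313 CPM in Stomach.

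Embryonic oesophageal cells were set against adult WT cells. All 10 members were tested, of which 4 were higher in Embryo and 5 lower, with 64% of 22370 genes called (36.1% higher, 27.8% lower), and the median was -0.41, against 0.16 over all genes. Hey1 had 14 and 25 CPM in Embryo libraries, against a lowest, median and highest level of 0, 0.116 and 1.70 CPM in WT libraries (5.17 ± 0.54, adjusted p = 2.36e-11). Hes1 had 327 and 310 CPM in Embryo libraries, against 29.2, 30.3 and 65.0 CPM in WT libraries (2.52 ± 0.23, adjusted p = 6.29e-13). Both target repressors lay above every WT library. Lfng had 17.2 and 35.7 CPM in Embryo, against 1.22, 2.5 and 6.21 CPM in WT (2.63 ± 0.33, adjusted p = 3.84e-09), and Dll4 was 1.94 and 2.47 CPM in Embryo, against 0.304 CPM or less in WT (3.23 ± 0.75, adjusted p = 0.000148). Dll1 had 4.80 and 3.12 CPM in Embryo libraries, against 60.1, 67.8 and 155 CPM in WT libraries, and fell by 5.09 ± 0.45 (adjusted p = 3.29e-13). Jag1 (-0.90 ± 0.19), Notch1 (-0.86 ± 0.18), Jag2 (-0.62 ± 0.16) and Notch3 (-0.52 ± 0.18) were lower and Notch2 was not called (-0.31, adjusted p = 0.114). Without Embryo library 1 Jag2 (-0.37, adjusted p = 0.114) and Notch3 (-0.43, adjusted p = 0.129) lost their calls, and without Embryo library 2 Notch2 was called lower (-0.58, adjusted p = 0.0347), with Jag1 at -1.41, Jag2 at -1.11 and Lfng at 1.97. Without WT library 1 Hey1 was higher by 6.77. The Notch3 call was also lost with RLE size factors (adjusted p = 0.0517), which moved the median of all genes by 0.104 on the log2 scale. Fibroblast markers summed to 157 and 339 CPM in Embryo, against 17.3 to 107 CPM in WT, and 3 of 5 mural markers were higher and 1 lower. Squamous basal markers were lower in Embryo in 7 of 7 genes and differentiation markers in 7 of 8 (median -5.82), and columnar markers were higher in 5 of 5. Their part in these results was not tested. Of 39 other pathway genes tested, 13 were higher and 11 lower in Embryo. The largest increases were of Dlk1, a Delta-like relative of embryonic tissues (9.25 ± 0.62, adjusted p = 5.79e-14), of the target repressor Heyl (5.80 ± 0.86, adjusted p = 1.5e-08) and of Dtx4 (4.41 ± 0.37, adjusted p = 4.9e-14).

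**Figure D5:**
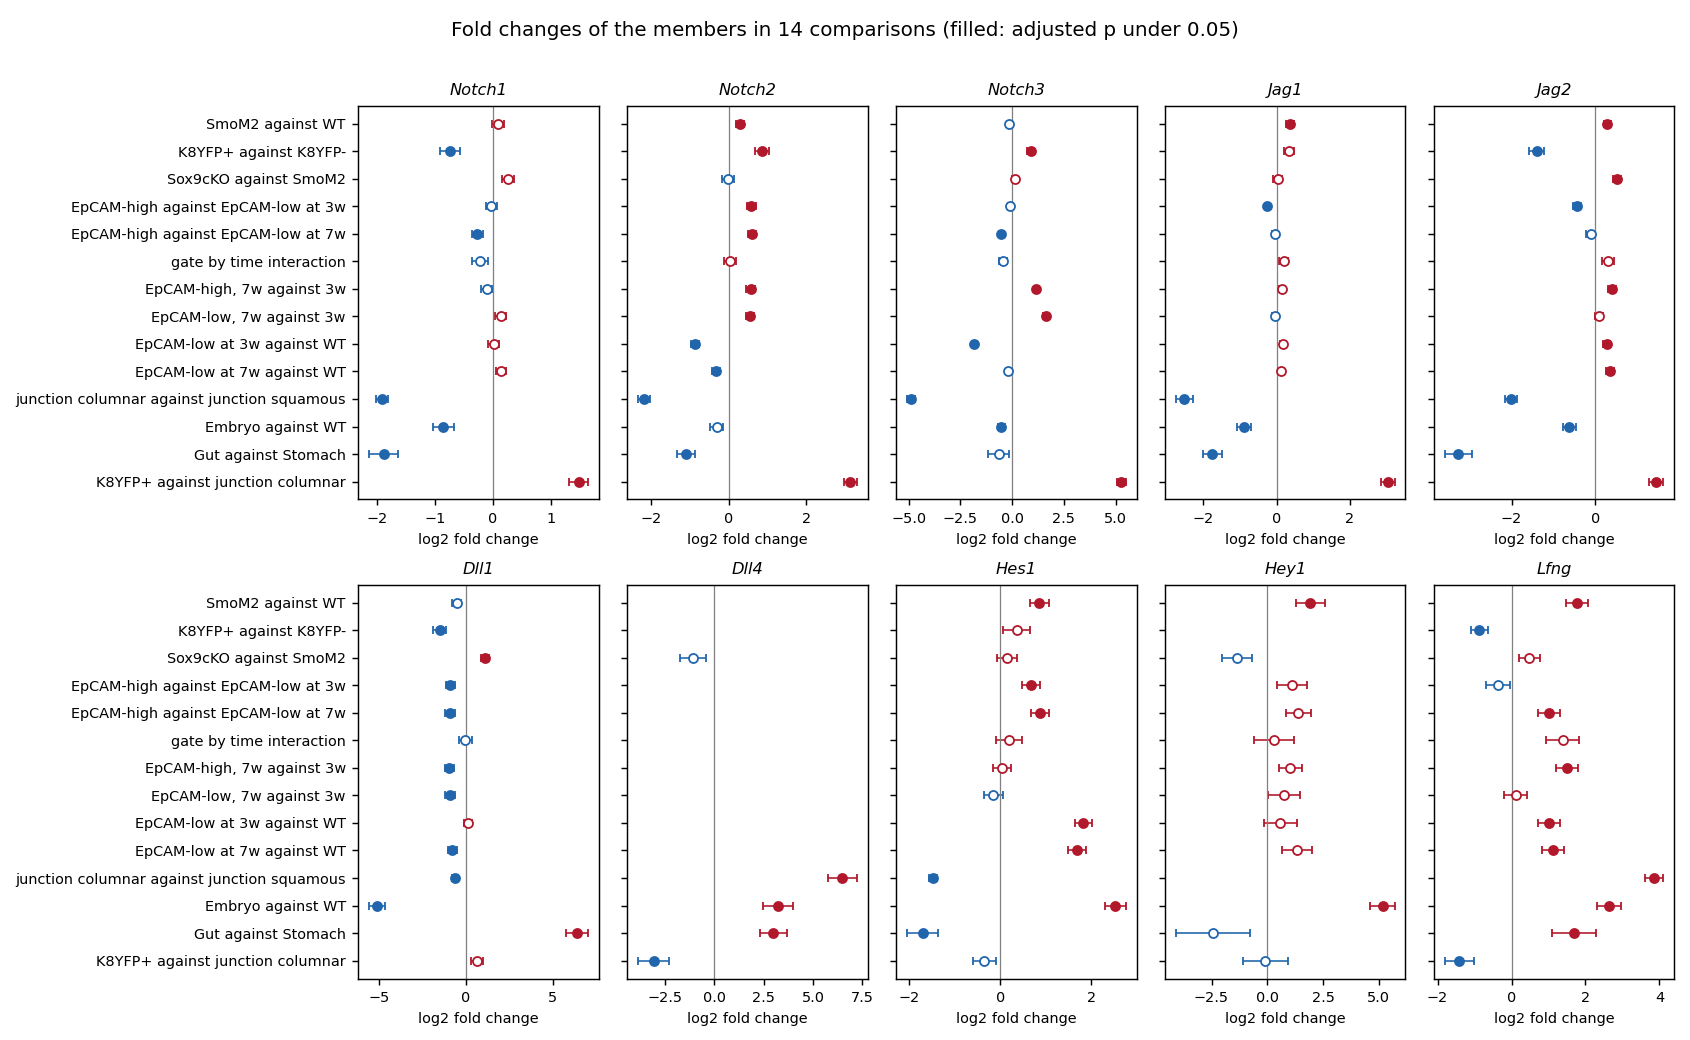
Points give the log2 fold change of each member (panels) in each of the 14 comparisons (rows), the group named first over the group after "against", with whiskers of 1 SE; the interaction row is the gate difference at 7w minus that at 3w. Filled points passed an adjusted p of 0.05, red is above and blue below 0, and a missing point was not tested. Notch3 reaches furthest left in junction columnar against junction squamous cells (-4.88), and Dll1 runs between -5.09 in Embryo against WT and 6.37 in Gut against Stomach.

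Several rows of the table overlap a member in position, so reads of the member and of such a row may be confused. Notch1 overlaps the antisense transcript 0610009E02Rik over 1068 bases of exon and Gm13568 over 414, Notch3 overlaps Gm17276 over 488, Dll1 overlaps A930024N18Rik over 867 and Dll4 overlaps Gm14207 over 214, all on the other strand, and Notch2 overlaps Gm42820 over 541 bases on its own strand (GENCODE M21). Whether counting used strand is not given in the sources used here, so reads of these pairs cannot be told apart. Over the 14 group means of log2(CPM + 1), the first-named overlapping genes of Notch1, Notch2, Notch3 and Dll1 were also those most like the member they overlap, with Pearson r of 0.993 to 0.994 among 16753 genes. Apart from them, the pattern of Notch1 was closest to Wdr91 (r = 0.993) and Jag2 (r = 0.987), that of Notch2 and of Notch3 to Arhgap23 (r = 0.973 and 0.98), that of Jag1 to Hdgf (r = 0.982), and that of Dll4 to Enpp3 (r = 0.982) and Vil1 (r = 0.979). Hes1 had no gene above r = 0.928 and Lfng none above 0.925. Hey1 was closest to Crybb3 (r = 0.974) and Dll1, after its antisense neighbour, to Eif4e3 (r = 0.933). The points are means of 2 to 6 libraries, several of the same cell type, so these correlations are a description only.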

How the data were processed

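RNA of sorted mouse cells was measured in 51 libraries. The authors deposited raw read counts per gene, whole numbers with no normalization, in 1 table for the series, and that unit is used here. Per the submitters' processing notes, STAR 2.5.3a, HTSeq and edgeR were used, with GRCm38 (mm10). Per the labels' protocols, libraries were made with NuGEN Ovation Solo and run on a NovaSeq. The annotation release and whether counting used strand were not given in the sources used here. This table lists 52636 genes, 10741 with no count, and all its per-sample columns were used; 52403 gene IDs were found in GENCODE M21, which gave positions and exon lengths.

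Each comparison was tested in R 4.3.3 with edgeR 4.0.16: TMM scaling, genes kept by filterByExpr (minimum count 10, minimum total 15), a two-sided quasi-likelihood F test, and Benjamini-Hochberg adjustment over all genes tested, with calls at an adjusted p under 0.05. The comparisons within the junction, by the YFP sort, by Sox9 and by SmoM2 were each fitted on the groups compared, the gate and time comparisons on the 4 time-series groups with WT, and those with Embryo, Gut, Stomach or K8YFP+ against junction columnar cells on all 51 libraries. Levels are CPM of the library total, and levels of different genes are CPM per kilobase of exon. Library totals of 1.61 M to 12.26 M counts limit the precision most in K8YFP+ library 2 and in the groups of 2, and intervals cover counting error only. The count test was checked on simulated data with 200 changed genes.

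The members, the other pathway genes and the marker lists were chosen with earlier results of these data known. All members are named, and of the other pathway genes those called with the 3 largest changes in each comparison; the genes of like pattern are the 3 with the highest correlation among genes with at least 5 CPM in 1 group, of which some are named. The replicate number pairs the samples where every same-numbered pair's deviations from the group means correlated above 0.1: this held for K8YFP+ and K8YFP- (0.291 to 0.409 over 3 pairs) and for the 2 gates at 3w (0.165 to 0.295 over 4 pairs). Alternatives were RLE size factors, no filter, DESeq2 1.42.0, the replicate block, another set of libraries in the fit, near-repeat WT libraries summed, and each library left out in turn.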

Additional observations from a re-analysis of the deposited data

Results flagged for a closer look

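In 80 groups of members and samples with 4 to 10 libraries, 7 had a library set apart by a gap to its neighbour above Dixon's 95% critical value, which chance gives in about 1 group in 20. The library labelled Sox9cKO 2 had 378 CPM of Notch1, below the next library at 437 CPM, and 547 CPM of Notch2, above the next at 360 CPM. WT library 1 had 398 CPM of Notch2, above the next at 307 CPM, and 1.70 CPM of Hey1, above the next at 0.214 CPM. SmoM2 library 1 had 193 CPM of Jag1, below the next at 290 CPM. In 7w EpCAM-low cells library 4 had 130 CPM of Jag2, below the next at 161 CPM. In junction columnar cells library 3 had 99.4 CPM of Hes1, above the next at 93.3 CPM. No member's gate difference passed edgeR's test of a change between 7w and 3w in the setting used for the report; that of Lfng (1.38 on the log2 scale, adjusted p = 0.108) passed with no filter on low counts (adjusted p = 0.0115) and with DESeq2 (adjusted p = 0.047).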

How the results depend on the processing

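Of 76 calls of members, 50 held under every alternative run. With WT near-repeats summed, 3 members were called in SmoM2 against WT. Fitted with all 51 libraries, 3 members were called between the gates at 3w, and the genes called were 6733 in K8YFP+ against K8YFP-, 1524 in Sox9cKO against SmoM2, 1378 between the gates at 3w and 42 in the interaction. In Gut against Stomach fitted alone, 5 members and 2398 genes were called. Without the count filter 767 genes were called in Sox9cKO against SmoM2 and 1 member (Lfng) in the interaction; with DESeq2 these were 1205 and 1. The cause was not tested. Leaving out 1 library at a time gave 1 to 5 members and 1016 to 2263 genes in K8YFP+ against K8YFP-, 2 to 4 members and 207 to 2153 genes in Sox9cKO against SmoM2, and 2 to 4 members between the gates at 3w.

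With the replicate block, where the numbers pair the samples, 4785 genes were called in K8YFP+ against K8YFP- and 3 members between the gates at 3w. Elsewhere not every same-numbered pair correlated above 0.1, which does not exclude that some are paired. There the block left 0 members and 125 genes in Sox9cKO against SmoM2, where same-numbered deviations correlated at -0.143 to 0.267, and Notch1 at 7w between the gates had adjusted p = 0.0573 (correlations 0.0746 to 0.207). It made Jag1 called in 3w EpCAM-low cells against WT (0.20, adjusted p = 0.0401), and it changed no other member's call beyond those given in the report.

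The signs that turned belonged to folds near 0 that were not called. Notch2 in Sox9cKO against SmoM2 was 0.00 with no filter or with all 51 libraries, and -0.24 to 0.09 with 1 library left out. Notch1 in 3w EpCAM-low cells against WT was -0.04 with no filter, -0.04 with the block, -0.03 with WT near-repeats summed and -0.01 with all 51 libraries, and -0.06 to 0.09 with 1 library left out. Hey1 in K8YFP+ against junction columnar cells was 0.08 with DESeq2 and -0.46 to 0.52 with 1 library left out. With 1 library left out, Sox9cKO against SmoM2 gave -0.05 to 0.10 for Jag1 and -0.03 to 0.37 for Hes1. The interaction gave -0.12 to 0.10 for Dll1 and -0.03 to 0.08 for Notch2. The times gave -0.01 to 0.13 for Hes1 in EpCAM-high cells and -0.04 to 0.19 for Lfng in EpCAM-low cells, and the gates at 3w -0.09 to 0.04 for Notch1. On the TMM scale 22 of 140 group levels moved by more than 1 SD. Dll4 and Hey1 rest on few counts in most squamous groups, so their levels there were near the limit of this depth.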

Other observations

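Notch4, the receptor outside the members, was too low for the filter in SmoM2 against WT, but its counts did not overlap between them. The 6 SmoM2 libraries had 0.737, 2.5, 4.23, 4.47, 2.75 and 1.14 CPM of Notch4, from 160 counts in all, against 0.213 CPM or less in the 6 WT libraries, from 6 counts. This was noticed after the values were seen. Dll4 showed a like step (79 counts in SmoM2, against 8 in WT). In EpCAM-high SmoM2 cells of the time series, Notch4 was 0.303 to 1.03 CPM at 7w and 0 to 0.28 CPM at 3w. Dll4 in these cells was 0.12 to 0.303 CPM at 7w and 0 to 0.522 CPM at 3w.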
